A study of Mus musculus with 8 samples.

Results

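The genes described here are the secreted ligands, receptors, antagonists and feedback genes of the Wnt pathway, 64 of the 55401 genes in the deposited table. They were chosen by name alone: the Wnt, frizzled (Fzd), secreted frizzled-related (Sfrp), dickkopf (Dkk), naked cuticle (Nkd), axin, R-spondin (Rspo), kremen and Lgr families, with Wif1, Frzb, Notum, Lrp5, Lrp6, Porcn, Wls, Znrf3, Rnf43, Ctnnb1 and the 4 TCF/LEF factors. The naming rule itself uses no measured value, but the topic was chosen with earlier results of these data known. The study had already named the Wnt pathway in its enrichment analysis of the same sequencing. RNA was sequenced from primary mandibular fibrochondrocytes, cells grown out of the condylar cartilage of the jaw joint, in 4 libraries from mice without NG2/CSPG4 (NG2ko) and 4 from wild type mice (WT), given in the methods as biological replicates. NG2/CSPG4, a proteoglycan of the cell membrane, binds the type VI collagen around these cells, and the study used the sequencing to screen for transcripts that differ when it is lost.

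WT mice were C57 BL/6J bought from a supplier. NG2ko mice were homozygous for a whole-body reporter-tagged (LacZ) deletion allele, made from Cspg4tm1a(KOMP)Wtsi/Bcm by crossing with a Cre line. The line, named TM1b-6N by the study, was backcrossed to C57 BL/6J for a few generations before a separate homozygous colony was set up. Any strain background that remained cannot be told apart from genotype. Pups were 10 to 14 days old by the labels and 14 days old by the sequencing methods, and their sex was not stated. All cells were at passage 4 in normal AMEM growth medium with serum, with no other treatment, so every level is that of cultured cells without load. Cspg4 had 6.93 to 13.5 CPM in NG2ko and 201 to 241 CPM in WT, where CPM is the count scaled to a common library size. The NG2ko mean was 4.23% of the WT mean (p = 0.0286 by a two-sided exact permutation test, the lowest value possible with 4 against 4 libraries).

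Wnt proteins are lipid-modified signals that bind frizzled receptors together with the co-receptors Lrp5 or Lrp6, which stops the destruction of β-catenin and lets it act with TCF/LEF factors on target genes. Secreted frizzled-related proteins and Wif1 bind the ligand itself, dickkopf proteins with kremen bind the co-receptors, and R-spondins acting through Lgr receptors and Znrf3 or Rnf43 keep frizzled receptors at the surface. Axin2, Nkd1, Nkd2, Znrf3 and Notum are known as feedback inhibitors, and in joint cartilage the pathway is known for its part in chondrocyte maturation and in osteoarthritis.

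Total counts were 60317187 to 83668935 per library. Of the 48 Wnt genes with enough counts to be tested, 16 were called, that is, had an adjusted p under 0.05 in edgeR's quasi-likelihood test with Benjamini-Hochberg adjustment over all 17190 genes tested. This was 33.3% of the tested Wnt genes, beside 12.2% of all genes tested. Wnt10b, Porcn, Fzd8, Fzd9, Sfrp2, Wif1, Rspo1, Rspo3, Nkd1 and Tcf7 were higher in NG2ko, 10 genes or 20.8% beside 5.45% of all genes. Wnt5a, Wnt9a, Dkk2, Kremen1, Rspo2 and Nkd2 were lower, 6 genes or 12.5% beside 6.75% of all genes. The genes called in each direction thus included ligands, R-spondins and naked cuticle genes. The median log2 fold change of the 48 was 0.05 beside 0.02 over all genes, and the median size of change regardless of direction was 0.25 beside 0.18.

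The study itself asked for a change of more than 1 on the log2 scale, up or down, and a p under 0.05 before adjustment. By these thresholds 7 Wnt genes were higher (2.06% of all genes were) and 0 lower (1.15% of all genes), the 7 with a p under 0.05 and a lower level having changed by less. The 7 higher genes were Wnt7b, Wnt10b, Wnt16, Fzd9, Sfrp2, Wif1 and Nkd1, of which Wnt7b and Wnt16 did not pass the adjusted test. All NG2ko libraries lay above all WT libraries for 12 of the 48 genes, where 9.81% of all genes did so, and below them for 4, where 10.1% of all genes did so. The 12 include Sfrp1 and Tcf7l1, which were not called, and the called Wnt5a and Wnt9a overlapped between the genotypes.

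The other 16 Wnt genes could not be tested. Wnt3, Wnt3a, Wnt7a, Wnt8a, Wnt8b, Wnt9b, Dkk4 and Kremen2 had 0 counts in all 8 libraries. If each count is a read pair, the usual 95% upper limit for 0 is about 3 counts a library, or 0.0364 to 0.0505 CPM. Wnt1, Wnt2, Wnt6, Fzd10, Dkk1, Sfrp5, Rspo4 and Rnf43 had at most 19 counts in any library. Dkk1, a secreted inhibitor of Lrp5 and Lrp6, had 4 counts in WT 1 and 0 elsewhere, and Rnf43, a relative of Znrf3 that removes frizzled receptors, was at 0 in 3 of the 8 libraries. Such counts cannot show a difference at this depth. Low counts in the table were often multiples of 4 (41.7% of the values from 1 to 16), so a count may stand for less than a read pair. Counts this low then hold less information than they seem to, and the upper limit given for 0 counts would be higher.

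Levels between genes were compared as FPKM, the authors' values scaled to transcript length and to the fragments of the library. The Wnt RNA found at the highest level was Dkk3, a divergent dickkopf relative not known to bind Lrp5 or Lrp6, at 190 ± 4.05 FPKM in NG2ko and 182 ± 2.17 FPKM in WT (SD, n = 4 here and for every value with ± in this text). Ctnnb1, which encodes β-catenin, followed at 112 ± 3.12 and 102 ± 8.30 FPKM. Sfrp2 came next in NG2ko at 85.3 ± 16.7 FPKM, and stood at 33.3 ± 4.74 FPKM in WT, below Wls and Fzd1. By contrast the ligands were low, and all 19 together summed to 10.3 ± 0.724 FPKM in NG2ko and 10.8 ± 0.712 FPKM in WT.

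**Figure D1:**
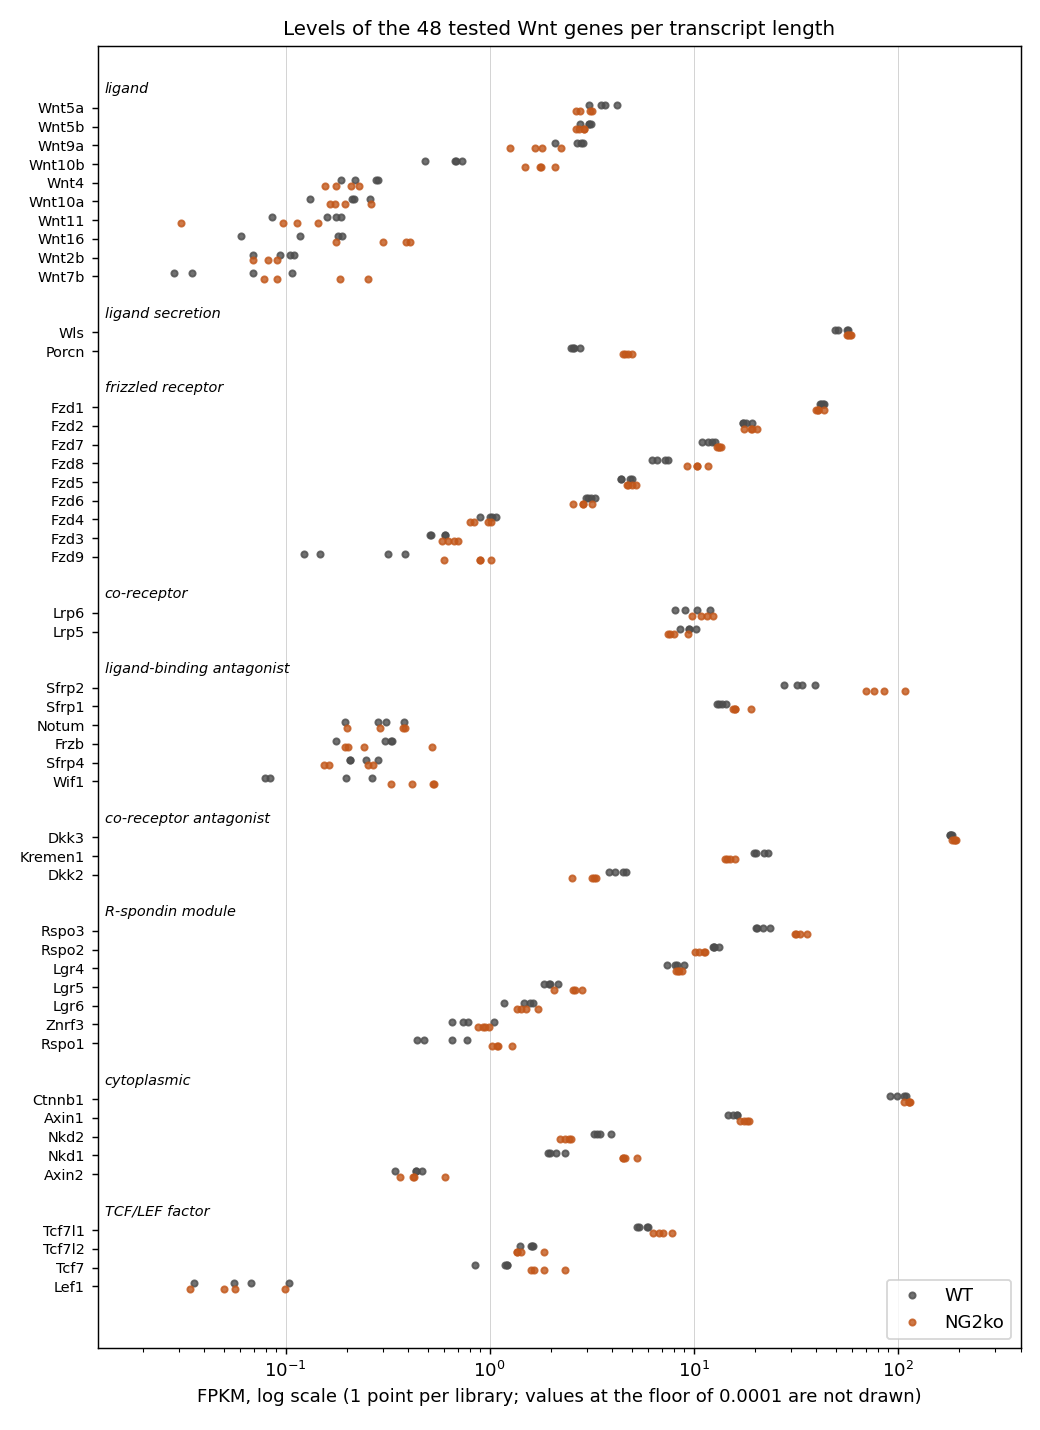
FPKM of the 48 tested Wnt genes in each of the 8 libraries, on a log axis, grouped by role and ordered by the WT mean within a role (grey, WT; orange, NG2ko). Dkk3 and Ctnnb1 lie near or above 100 FPKM while no ligand reaches 5 FPKM, and the genotypes separate for genes such as Wnt10b, Porcn, Sfrp2, Rspo3 and Nkd1.

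Promoter sequences are shown for a called pair of ligands and for 2 further called genes that the text turns on, with Wnt10b and Sfrp2 higher in NG2ko and Wnt9a and Nkd2 lower. Each run is the 250 bases before the RefSeq start of the gene, from RefSeq on GRCm38.p6, read 5′ to 3′ on the gene's own strand. They are chr15:98778151-98778400 on the minus strand, chr3:83766071-83766320 on the plus strand, chr11:59306680-59306929 on the plus strand and chr13:73847632-73847881 on the minus strand. Capitals mark the GC box letters GGGCGG on either strand.
Wnt10b: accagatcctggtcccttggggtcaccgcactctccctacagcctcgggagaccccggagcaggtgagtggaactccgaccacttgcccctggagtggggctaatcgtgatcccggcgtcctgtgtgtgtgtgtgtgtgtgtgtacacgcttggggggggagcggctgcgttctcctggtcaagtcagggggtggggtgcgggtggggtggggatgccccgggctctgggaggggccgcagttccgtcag
Sfrp2: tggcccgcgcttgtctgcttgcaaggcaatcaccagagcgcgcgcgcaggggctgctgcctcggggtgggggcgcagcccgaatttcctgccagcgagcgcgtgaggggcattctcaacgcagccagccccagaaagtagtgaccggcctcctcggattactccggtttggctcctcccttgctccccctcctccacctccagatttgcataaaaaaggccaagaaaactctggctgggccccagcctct
Wnt9a: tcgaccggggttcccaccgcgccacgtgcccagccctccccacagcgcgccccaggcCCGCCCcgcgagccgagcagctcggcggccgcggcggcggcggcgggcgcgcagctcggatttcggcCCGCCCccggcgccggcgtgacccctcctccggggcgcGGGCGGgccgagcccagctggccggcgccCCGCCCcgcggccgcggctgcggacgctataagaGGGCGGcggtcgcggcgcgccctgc
Nkd2: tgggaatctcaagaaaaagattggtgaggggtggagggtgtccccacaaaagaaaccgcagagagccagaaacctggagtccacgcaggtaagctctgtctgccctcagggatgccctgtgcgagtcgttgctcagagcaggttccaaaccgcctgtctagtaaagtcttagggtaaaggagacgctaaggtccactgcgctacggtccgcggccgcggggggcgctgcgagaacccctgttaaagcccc
The window of Wnt9a was 84.4% G and C with 5 GC boxes, and those of Wnt10b (66.8%), Sfrp2 (63.6%) and Nkd2 (58.4%) held 0. Over all 32851 mouse promoter entries, 32.7% held a GC box. The TCF/LEF core letters CTTTGAT or CTTTGTT, searched on both strands, were in none of these 4 windows. Promoter entries were matched for 42 of the 64 Wnt genes, with 52 entries in all since some genes have several. Of these entries 5 held a core (1 each of Dkk1, Fzd7, Tcf7l2, Wnt11 and Wnt5b), or 9.62% beside 8.06% of all entries. Of the called genes with an entry, 0 of 7 higher and 0 of 3 lower held a core. The 7 include Nkd1, whose entry lies 6279 bases inside the gene as the table places it and is not shown. These are letter matches within 250 bases only.

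Of the 10 ligands tested, Wnt10b was higher in NG2ko and Wnt5a and Wnt9a were lower. Wnt10b, a ligand known for canonical signalling and for bone formation (ENSMUSG00000022996, chromosome 15 from 98770712 to 98778150), had 5.52, 6.64, 6.68 and 7.72 CPM in NG2ko 1 to 4 and 1.85, 2.62, 2.77 and 2.66 CPM in WT 1 to 4. The lowest NG2ko library stood well above the highest WT library, and the groups did not overlap. The log2 fold change was 1.42, with a standard error (SE) of 0.16 (edgeR adjusted p = 0.000354). Wnt1, which lies 11.7 kb away, had 4 counts in a single WT library.

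Wnt9a, a ligand with a known role in joint formation (ENSMUSG00000000126, chromosome 11 from 59306928 to 59333552), had 4.55, 6.13, 6.61 and 8.09 CPM in NG2ko 1 to 4 and 10.5, 7.85, 10.6 and 10.1 CPM in WT 1 to 4. NG2ko 4 lay just above WT 2, so the groups overlapped, and the log2 fold change was -0.62 (edgeR adjusted p = 0.0412, SE 0.17). Wnt5a, the main ligand of β-catenin-independent signalling, had 23.7, 27.4, 22.8 and 26.2 CPM in NG2ko 1 to 4 and 32.3, 31.0, 36.6 and 27.1 CPM in WT 1 to 4. NG2ko 2 lay above WT 4, and the log2 fold change was -0.34 (edgeR adjusted p = 0.0483, SE 0.10). Both calls depended on the libraries. That of Wnt5a was lost when any 1 of NG2ko 1, 2, 3 and 4 and WT 1, 2 and 3 was left out (adjusted p from 0.0535 to 0.132, edgeR), and that of Wnt9a when any 1 of NG2ko 1, 2 and 3 and WT 1, 3 and 4 was left out (adjusted p from 0.0778 to 0.102, edgeR).

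The make-up of the ligand RNA differed between the genotypes while its sum was nearly the same. In FPKM, Wnt10b was 17.2% ± 1.34 of the ligand sum in NG2ko and 5.97% ± 1.03 in WT, while Wnt9a was 16.8% ± 2.97 and 24.0% ± 2.42. Wnt5a, the highest ligand in both genotypes, was 28.5% ± 1.90 and 33.4% ± 2.86. Wnt5b, a close relative of Wnt5a, was 27.2% ± 2.20 and 27.9% ± 1.23, and its log2 fold change of -0.15 did not pass (95% interval -0.34 to 0.04, adjusted p = 0.326, edgeR). The gene overlaps Fbxl14 on the other strand, and since it is not stated whether the counting used strand, reads of the overlap could belong to either.

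Wnt16 and Wnt7b were the ligands past the study's thresholds but not called by edgeR. Wnt16, a ligand known from cortical bone and from injured joint tissue, had 1.95, 1.47, 1.86 and 0.842 CPM in NG2ko 1 to 4 and 0.303, 0.947, 0.586 and 0.902 CPM in WT 1 to 4. NG2ko 4 lay below WT 2 and WT 4, and the log2 fold change was 1.15 (edgeR adjusted p = 0.0819, SE 0.38). Of the 20 alternative settings only DESeq2 called Wnt16 (adjusted p = 0.0335, DESeq2). Wnt7b, a ligand with a known role in bone formation, had 0.509, 1.36, 1.01 and 0.428 CPM in NG2ko 1 to 4 and 0.202, 0.595, 0.386 and 0.171 CPM in WT 1 to 4, with overlap. Its log2 fold change was 1.27 (95% interval 0.13 to 2.41, adjusted p = 0.15, edgeR). Wnt10a, the paralog of Wnt10b, was at 0.371 to 0.731 CPM over the 8 libraries, with a log2 fold change of -0.08 (edgeR adjusted p = 0.920).

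Ligand release depends on Porcn, the enzyme that adds the lipid, and on Wls, the carrier to the surface. Porcn (chromosome X from 8193848 to 8206525) had 15.7, 15.3, 16.5 and 14.7 CPM in NG2ko 1 to 4 and 8.64, 9.35, 8.39 and 8.85 CPM in WT 1 to 4. The groups were far apart and tight, and the log2 fold change was 0.82 (edgeR adjusted p = 0.000114, SE 0.08). Wls, at 57.9 ± 1.34 FPKM in NG2ko and 53.5 ± 3.96 FPKM in WT, had a log2 fold change of 0.07 (95% interval -0.05 to 0.19, adjusted p = 0.453, edgeR). Porcn is X-linked, and the libraries differed in sex-linked RNA. The 8 Y-linked genes examined summed to 188 to 202 CPM in NG2ko and to 0 to 0.286 CPM in WT, with Sry, Usp9y, Zfy1 and Zfy2 at 0 in all libraries. Genotype and this difference cannot be told apart, for Porcn or for any other called gene. Of the 589 tested genes on chromosome X, 6.79% were called higher and 6.45% lower, beside 5.45% and 6.75% of all genes. Their log2 fold changes ran from -7.35 to 3.23. A share over the whole chromosome does not test the part of sex in a single gene such as Porcn.

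Of the 9 frizzled receptors tested, Fzd8 and Fzd9 were higher in NG2ko and 0 were lower, also at an unadjusted p under 0.05, with DESeq2 and with limma-voom. Fzd8 had 67.9, 76.9, 68.1 and 59.6 CPM in NG2ko 1 to 4 and 44.2, 50.4, 41.4 and 48.8 CPM in WT 1 to 4. The groups did not overlap, and the log2 fold change was 0.56 (edgeR adjusted p = 0.00238, SE 0.09). Fzd9, a receptor known in mouse from osteoblasts and neural tissue, had 1.49, 2.57, 2.27 and 2.23 CPM in NG2ko 1 to 4 and 0.320, 0.826, 0.386 and 1.01 CPM in WT 1 to 4. It was the largest log2 fold change among the 48 Wnt genes at 1.74 (edgeR adjusted p = 0.0120, SE 0.37), with no overlap, but at a low level.

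The receptors at the highest level were not called. Fzd1 was at 41.2 ± 1.68 FPKM in NG2ko and 42.6 ± 0.856 FPKM in WT, with a log2 fold change of -0.09 (95% interval -0.20 to 0.02, adjusted p = 0.277, edgeR). Fzd2 was at 19.1 ± 1.06 and 18.1 ± 0.890 FPKM, with a log2 fold change of 0.04 (95% interval -0.09 to 0.18, adjusted p = 0.729, edgeR). Together with Fzd7, at 13.3 ± 0.246 and 12 ± 0.759 FPKM, they held most of the frizzled RNA. Fzd8 made up 11.1% ± 0.783 of the frizzled sum in NG2ko and 7.73% ± 0.583 in WT, and Fzd9 0.90% ± 0.166 and 0.273% ± 0.144. The remaining Fzd3, Fzd4, Fzd5, Fzd6 and Fzd7 did not pass, with log2 fold changes from -0.18 to 0.17.

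Neither co-receptor was called by edgeR, DESeq2 or limma-voom, and only Lrp5 had an unadjusted p under 0.05. Lrp5 had 81.3, 100, 85.9 and 79.1 CPM in NG2ko 1 to 4 and 103, 104, 92.3 and 113 CPM in WT 1 to 4. Only NG2ko 2 reached into the WT range, and the log2 fold change was -0.25 (95% interval -0.44 to -0.06, adjusted p = 0.0896, edgeR). Without NG2ko 2 it was -0.33 and was called (adjusted p = 0.0244, edgeR). Lrp6, the co-receptor at the higher level per length in NG2ko with 11.2 ± 1.11 FPKM, had a log2 fold change of 0.14 (95% interval -0.14 to 0.42, adjusted p = 0.546, edgeR).

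**Figure D2:**
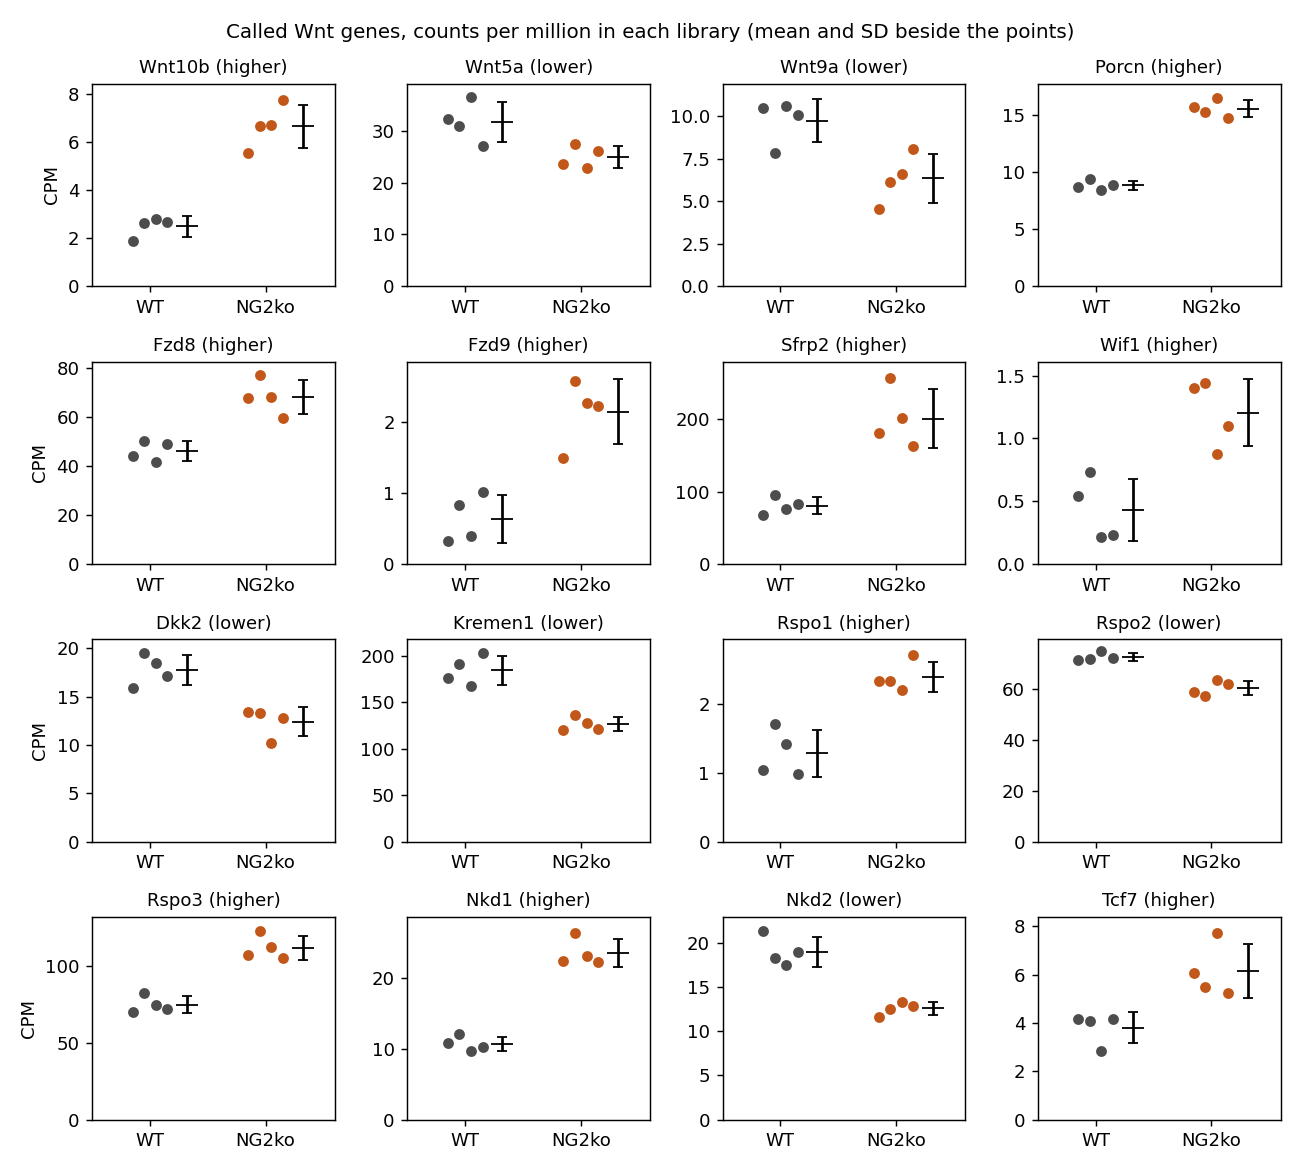
CPM in each library for the 16 called Wnt genes, with the mean and SD of 4 libraries beside the points (grey, WT; orange, NG2ko; axes start at 0). The groups lie apart in every panel except Wnt5a and Wnt9a, where NG2ko 2 and NG2ko 4 respectively reach past the lowest WT library.

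Of the 6 antagonists tested that bind the ligand or inactivate it, Sfrp2 and Wif1 were higher in NG2ko. Sfrp2 (ENSMUSG00000027996, chromosome 3 from 83766321 to 83774316), a secreted protein with a frizzled-like domain, had 180, 257, 202 and 163 CPM in NG2ko 1 to 4 and 67.2, 95, 76.1 and 83.0 CPM in WT 1 to 4. Every NG2ko library was above every WT library by a wide margin. The log2 fold change was 1.32 (edgeR adjusted p = 0.00114, SE 0.16), a 2.50-fold rise. Wif1, a secreted Wnt-binding protein known in cartilage, had 1.40, 1.44, 0.875 and 1.10 CPM in NG2ko 1 to 4 and 0.539, 0.729, 0.214 and 0.233 CPM in WT 1 to 4. The groups did not overlap, and the log2 fold change was 1.48 (edgeR adjusted p = 0.0435, SE 0.41). The call was lost when any 1 of NG2ko 1, 2, 3 and 4 and WT 1, 3 and 4 was left out (adjusted p from 0.0569 to 0.107, edgeR).

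Sfrp1, the paralog next to Sfrp2 in level, had 76.0, 91.3, 75.1 and 75.1 CPM in NG2ko 1 to 4 and 63.5, 71.2, 64.3 and 67.9 CPM in WT 1 to 4. All NG2ko libraries were above all WT libraries, yet the log2 fold change of 0.25 did not pass (95% interval 0.08 to 0.42, adjusted p = 0.0559, edgeR). It was called under 6 of the 20 alternative settings, DESeq2 among them (adjusted p = 0.0372, DESeq2). Sfrp4, Frzb and Notum were at or below 1.88 CPM in each library and did not pass, with log2 fold changes of -0.20, -0.01 and 0.06. With Sfrp2 as its main part, the sum of the 7 antagonists of this kind was 103 ± 18.4 FPKM in NG2ko and 47.9 ± 5.39 FPKM in WT. In each genotype this exceeded the summed ligand RNA.

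Of the 3 co-receptor antagonists tested, Kremen1 and Dkk2 were lower in NG2ko and Dkk3 did not pass. Kremen1, a receptor that takes up Lrp6 together with dickkopf proteins, had 120, 136, 128 and 122 CPM in NG2ko 1 to 4 and 176, 191, 168 and 203 CPM in WT 1 to 4. The groups did not overlap, and the log2 fold change was -0.55 (edgeR adjusted p = 0.000665, SE 0.07). Dkk2, a dickkopf protein that binds Lrp5 and Lrp6, had 13.4, 13.3, 10.2 and 12.8 CPM in NG2ko 1 to 4 and 15.9, 19.5, 18.5 and 17.2 CPM in WT 1 to 4. Here too the groups lay apart, with a log2 fold change of -0.52 (edgeR adjusted p = 0.0103, SE 0.11). Dkk3, by contrast, had a log2 fold change of 0.02 (95% interval -0.07 to 0.11, adjusted p = 0.811, edgeR). Dkk3, counted in this class although not known to bind Lrp5 or Lrp6, held most of its RNA. With Dkk3 included, the class summed to 208 ± 4.06 FPKM in NG2ko and 208 ± 3.57 FPKM in WT. These sums mainly reflect Dkk3 and say little of Kremen1 and Dkk2, both of which were lower in NG2ko. Kremen1 lies 14.8 kb from Znrf3, a ligase that removes frizzled receptors, whose log2 fold change was 0.18 (95% interval -0.13 to 0.49, adjusted p = 0.488, edgeR).

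**Figure D3:**
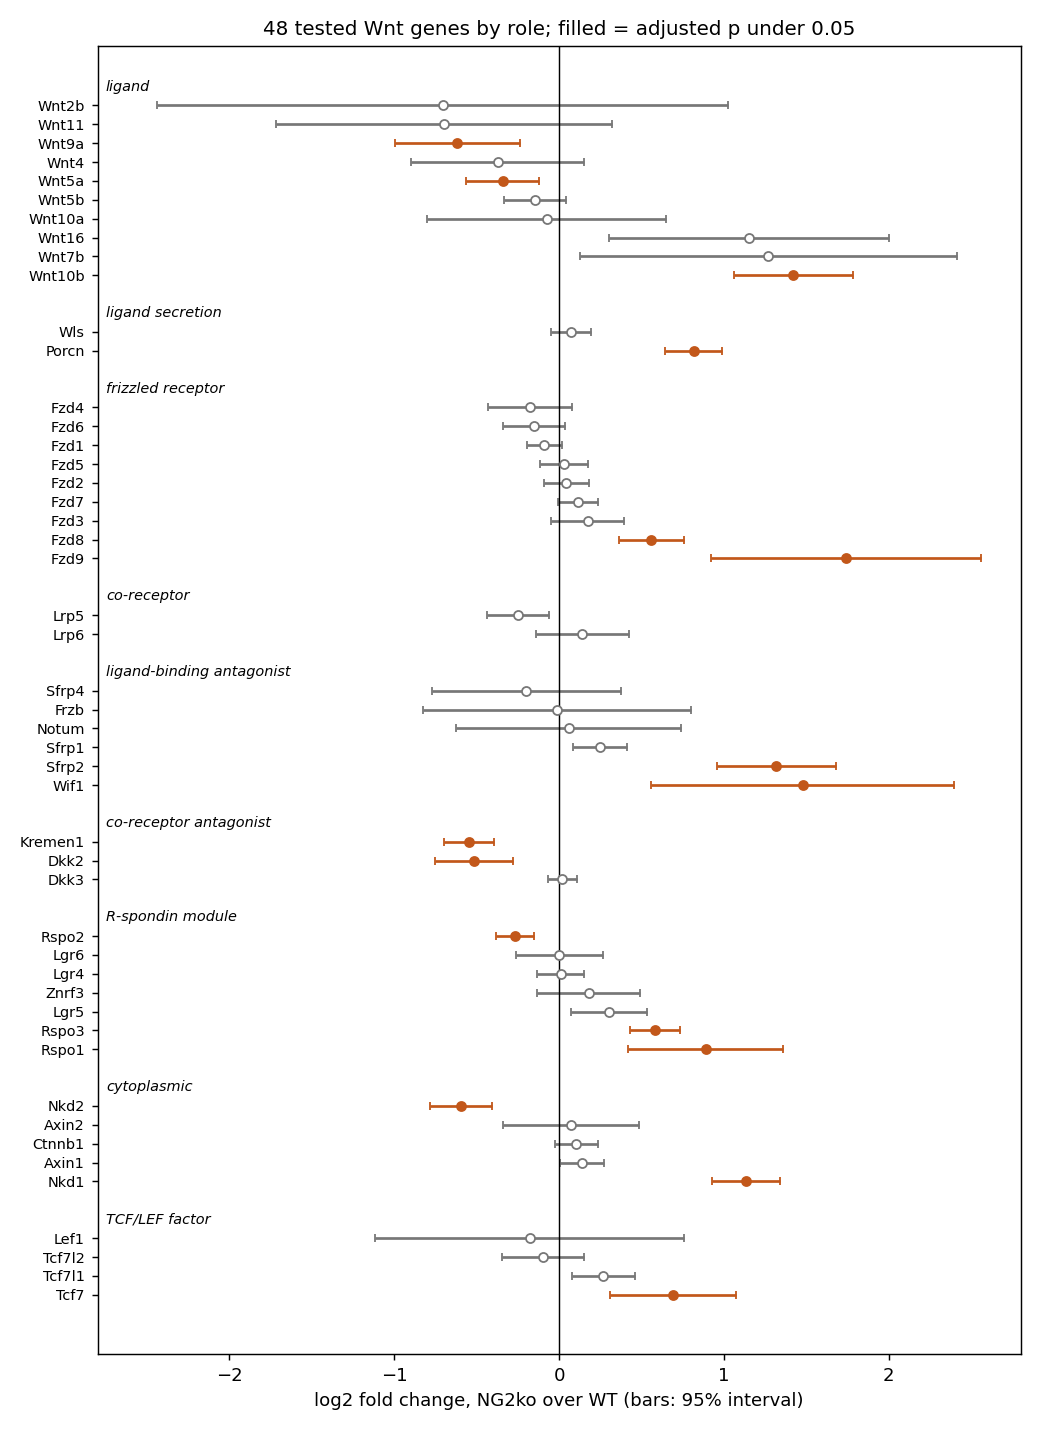
Log2 fold change, NG2ko over WT, of the 48 tested Wnt genes by role, with 95% intervals from edgeR's fit (filled orange, adjusted p under 0.05; open grey, not passed). Ligand-binding antagonists called were higher and co-receptor antagonists called were lower, while ligands, R-spondins and the naked cuticle genes hold called members on both sides of 0.

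Among the R-spondins, which amplify Wnt signals, Rspo1 and Rspo3 were higher in NG2ko and Rspo2 was lower. Rspo3 (chromosome 10 from 29452416 to 29535867) had 107, 122, 112 and 105 CPM in NG2ko 1 to 4 and 69.6, 82.2, 74.5 and 71.6 CPM in WT 1 to 4. The groups did not overlap, and the log2 fold change was 0.58 (edgeR adjusted p = 0.000465, SE 0.07). Rspo2 (chromosome 15 from 43020794 to 43170826) had 59.0, 57.3, 63.7 and 62.0 CPM in NG2ko 1 to 4 and 71.5, 72.0, 75.0 and 72.5 CPM in WT 1 to 4. This was a small difference between tight groups, at a log2 fold change of -0.27 (edgeR adjusted p = 0.00767, SE 0.05).

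Rspo1 had 2.33, 2.33, 2.20 and 2.71 CPM in NG2ko 1 to 4 and 1.04, 1.71, 1.41 and 0.980 CPM in WT 1 to 4. The groups did not overlap, and the log2 fold change was 0.89 (edgeR adjusted p = 0.0215, SE 0.21). That call was lost when any 1 of NG2ko 1 and 4 and WT 1 and 4 was left out (adjusted p from 0.0509 to 0.0641, edgeR). In FPKM, Rspo3 was 73.4% ± 1.98 of the R-spondin sum in NG2ko and 61.7% ± 1.52 in WT. Rspo2 was 24.1% ± 1.79 and 36.5% ± 1.79, so Rspo3, at 33.1 ± 2.10 FPKM in NG2ko and 21.5 ± 1.6 FPKM in WT, was the main R-spondin RNA in both genotypes.

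The R-spondin receptors did not pass. Lgr4, the receptor at the highest level, had a log2 fold change of 0.01 (95% interval -0.13 to 0.15, adjusted p = 0.942, edgeR), and Lgr6 one of 0.00 (95% interval -0.26 to 0.27, adjusted p = 0.993, edgeR). Lgr5, also known as a stem cell marker, had 28.7, 31.9, 29.6 and 22.9 CPM in NG2ko 1 to 4 and 21.2, 25.1, 22.5 and 22.7 CPM in WT 1 to 4. Only NG2ko 4 reached into the WT range, and the log2 fold change was 0.30 (95% interval 0.08 to 0.53, adjusted p = 0.0864, edgeR). Without NG2ko 4 it was 0.39 and was called (adjusted p = 0.0158, edgeR).

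The naked cuticle pair, which binds the signal transducer Dishevelled inside the cell, split between the directions. Nkd1 (ENSMUSG00000031661, chromosome 8 from 88521354 to 88594884) had 22.3, 26.4, 23.1 and 22.3 CPM in NG2ko 1 to 4 and 10.8, 12, 9.74 and 10.2 CPM in WT 1 to 4. The groups were widely separated, and the log2 fold change of 1.13 (SE 0.09) had the smallest adjusted p of the Wnt genes at 5.09e-05 (edgeR). Nkd2 (ENSMUSG00000021567, chromosome 13 from 73818534 to 73847631) had 11.6, 12.5, 13.3 and 12.8 CPM in NG2ko 1 to 4 and 21.3, 18.2, 17.4 and 18.9 CPM in WT 1 to 4. Again the groups did not overlap, with a log2 fold change of -0.59 (edgeR adjusted p = 0.00138, SE 0.09).

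Axin2, the feedback gene most used as a readout of β-catenin signalling, had 2.21, 2.58, 2.56 and 3.62 CPM in NG2ko 1 to 4 and 2.71, 2.71, 2.86 and 2.15 CPM in WT 1 to 4. The WT range lay inside the NG2ko range save for WT 4, which was lowest of all. The log2 fold change was 0.07 (95% interval -0.34 to 0.49, adjusted p = 0.860, edgeR), an interval that leaves room for a moderate change either way. It was -0.09 without NG2ko 4 and -0.01 without WT 4. Axin1, its constitutive paralog in the β-catenin destruction complex, had a log2 fold change of 0.14 (95% interval 0.01 to 0.27, adjusted p = 0.174, edgeR), and Ctnnb1 one of 0.11 (95% interval -0.03 to 0.24, adjusted p = 0.306, edgeR).

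Of the TCF/LEF factors, which carry β-catenin to DNA, Tcf7 was higher in NG2ko. It had 6.08, 5.50, 7.72 and 5.22 CPM in NG2ko 1 to 4 and 4.14, 4.07, 2.83 and 4.15 CPM in WT 1 to 4. The groups did not overlap, and the log2 fold change was 0.69 (edgeR adjusted p = 0.0257, SE 0.17). The call was lost without NG2ko 1 or NG2ko 3 (adjusted p from 0.0590 to 0.0763, edgeR). Tcf7l1, the factor at the highest level at 7.00 ± 0.642 FPKM in NG2ko and 5.66 ± 0.363 FPKM in WT, had a log2 fold change of 0.27 (95% interval 0.08 to 0.46, adjusted p = 0.0716, edgeR) with no overlap between the groups. It was called under 4 of the 20 alternative settings. These were the fit without NG2ko 4 (adjusted p = 0.0472, edgeR), DESeq2 (adjusted p = 0.0485, DESeq2) and both FPKM settings. Tcf7l2 and Lef1 did not pass, at -0.10 and -0.18.

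Ratios of FPKM within a library put the related genes on a common scale. The pairs were chosen after the values were seen, so no test is given. Nkd1 stood at 1.99 ± 0.190 times Nkd2 in NG2ko and at 0.600 ± 0.0700 times Nkd2 in WT, so the more abundant of the pair differed between the genotypes. Rspo3 stood at 3.06 ± 0.327 and 1.69 ± 0.131 times Rspo2. Sfrp2 stood at 5.10 ± 0.594 and 2.44 ± 0.233 times Sfrp1, and Wnt10b at 0.609 ± 0.0748 and 0.180 ± 0.0385 times Wnt5a. In all 4 ratios every NG2ko library was above every WT library.

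**Figure D4:**
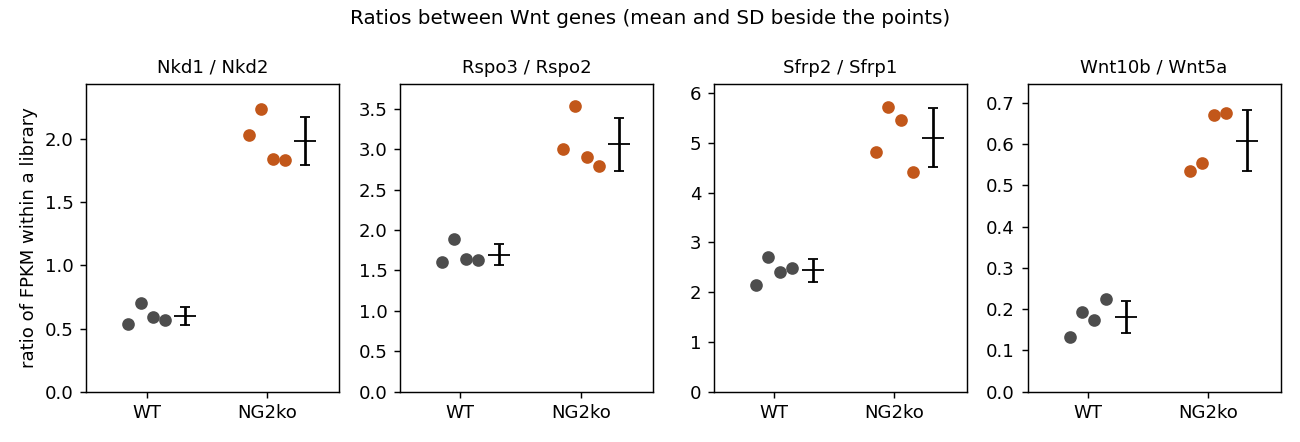
Ratio of FPKM between 2 Wnt genes within each library, for 4 pairs chosen after the values were seen, with the mean and SD of 4 libraries beside the points (grey, WT; orange, NG2ko; axes start at 0). Nkd1 exceeds Nkd2 in all NG2ko libraries and lies below it in all WT libraries.

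A further 92 genes of the pathway were examined as lists, and 88 were tested. Of these 19 were called, 6 higher and 13 lower, which is 21.6% beside the 12.2% of all genes. Of 16 tested genes known as Wnt targets in various tissues, 5 were lower and 1 was higher, or 37.5% called. Ccnd1, which encodes cyclin D1, had 538, 537, 558 and 536 CPM in NG2ko 1 to 4 and 871, 864, 870 and 901 CPM in WT 1 to 4, far apart and with little spread (-0.69 on the log2 scale, SE 0.04, edgeR adjusted p = 6.63e-06). Jun, an AP-1 transcription factor, and Cd44, a hyaluronan receptor, were also lower at -0.55 and -0.54 on the log2 scale. Tnfrsf19, a TNF receptor family member, had 8.70, 12, 9.55 and 11.7 CPM in NG2ko 1 to 4 and 1.58, 2.76, 1.13 and 1.74 CPM in WT 1 to 4. It rose by 2.53 on the log2 scale (edgeR adjusted p = 0.000219, SE 0.25), so the listed targets did not move together.

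Of 12 further tested surface modulators, 3 were higher and 2 lower, or 41.7% called. Sostdc1, a secreted inhibitor of Wnt and BMP signals, had 0.521, 0.920, 0.653 and 1.07 CPM in NG2ko 1 to 4 and 2.39, 1.80, 3.33 and 2.57 CPM in WT 1 to 4. It fell by 1.67 on the log2 scale (edgeR adjusted p = 0.00333, SE 0.28), with no overlap. Trabd2b, which encodes a protease that inactivates Wnt ligands, was lower at -0.41, while Draxin, a secreted Wnt antagonist known from axon guidance, was higher at 0.67. Igfbp4, a growth factor binding protein also known to inhibit Wnt signals, was higher at 0.33, a call lost without NG2ko 4, WT 1 or WT 4 (adjusted p from 0.0555 to 0.0598, edgeR).

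Inside the cell, 4 of 23 tested genes of the cytoplasmic relay were lower and 0 were higher (1 higher at an unadjusted p under 0.05, 1 with DESeq2 and 0 with limma-voom), or 17.4% called. They were Apc2, a relative of the destruction complex scaffold Apc, at -0.80, Dact3, a Dishevelled-binding antagonist, at -0.35, and the casein kinases Csnk1g2 and Csnk1e at -0.25 and -0.16. The Csnk1e call was lost whichever library was left out (adjusted p from 0.0507 to 0.140, edgeR), and that of Csnk1g2 without NG2ko 1, 2 or 3 (adjusted p from 0.0510 to 0.0553, edgeR). Of 15 nuclear cofactors 13.3% were called, close to the 12.2% of all genes. The co-repressor Tle1 was lower at -0.46 and the β-catenin cofactor Pygo1 was higher at 0.29. The Pygo1 call was lost when any 1 of NG2ko 1, 2, 3 and 4 and WT 1, 3 and 4 was left out (adjusted p from 0.0656 to 0.107, edgeR). Of 22 tested genes of β-catenin-independent signalling 9.09% were called, below the 12.2% of all genes. The Wnt5a receptor Ror1 was higher at 0.37 and the planar polarity gene Prickle2 was lower at -0.37. The Ror1 call was lost without NG2ko 1 or NG2ko 4 (adjusted p from 0.0524 to 0.0559, edgeR).

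Markers of cell types that the cultures could hold differed between the genotypes along with the Wnt genes. Each count of 0 given for them here was also 0 at an unadjusted p under 0.05, with DESeq2 and with limma-voom. Over all genes tested, 5.45% were called higher and 6.75% lower. Of 13 tested chondrocyte markers 10 were higher in NG2ko and 0 lower, and the 15 listed summed to 1274 to 1558 CPM in NG2ko and 902 to 1184 CPM in WT, with Matn1 at 0 throughout. Of 21 tested myeloid markers 17 were higher and 0 lower, with sums of 369 to 432 CPM in NG2ko and 108 to 129 CPM in WT and no listed marker at 0 in all libraries. Of 9 tested osteoblast markers 3 were higher and 4 lower, with sums of 2461 to 2848 CPM in NG2ko and 3333 to 3936 CPM in WT and Sost at 0 throughout. Fibrous layer markers, of which 3 of 12 were higher and 1 lower, summed to 44128 to 53060 CPM in NG2ko and 40355 to 48478 CPM in WT. Mural cell markers, of which 0 of 7 were higher and 2 lower, summed to 3232 to 3518 CPM in NG2ko and 3098 to 3354 CPM in WT. A single gene held most of several sums, so these say little of the other markers. Acta2 of the mural list had a mean of 3349 CPM in NG2ko and 3182 CPM in WT. Col11a1 of the chondrocyte list had 998 and 733 CPM, and Lyz2 of the myeloid list 277 and 83.5 CPM. Endothelial, epithelial, muscle and glial markers summed to at most 12.9 CPM in any library. Endothelial sums were 4.69 to 5.89 CPM in NG2ko and 2.69 to 4.12 CPM in WT, and Erg of that list was called higher. Glial sums were 7.92 to 8.63 CPM in NG2ko and 3.64 to 7.36 CPM in WT. Epithelial and muscle sums overlapped between the genotypes. The part of these cell types in the Wnt differences was not tested, and in RNA of whole cultures fewer cells of a type and less RNA per cell cannot be told apart. In a fit that left out the genes of chromosomes X and Y and the myeloid markers before scaling, 15 Wnt genes were called. These were the 16 without Porcn, which that fit leaves out. The fit drops genes and not cells, so it does not test the part of sex or of myeloid cells.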

How the data were processed

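RNA of 4 NG2ko and 4 WT libraries of primary mandibular fibrochondrocytes was analysed, grouped by the sample labels. After trimming of adapters and poor reads, the authors aligned to mouse Ensembl release 101 by HISAT2 and quantified genes by StringTie and edgeR. Tool versions and the read counter are not given in the sources used here. The deposited counts are whole numbers per gene that the authors did not normalize. The deposited FPKM values are the authors' own, with 0.0001 in place of 0.

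Counts were scaled by TMM, filtered by filterByExpr (count minimum 10) and tested in edgeR 4.0.16 (R 4.3.3), robust quasi-likelihood, on genotype alone, over all 17190 genes that passed. Standard errors were taken as the size of the log2 difference over the root of F. The code was tested on simulated counts. Alternatives were each library left out in turn, the replicate number as a block, a count minimum of 50 or no filter, RLE and upper-quartile scaling, DESeq2 1.42.0, limma-voom (limma 3.58.1), an ordinary prior, log2(FPKM + 0.1) and log2(FPKM + 1) with limma, a table without chromosomes X and Y and the myeloid list, and counts divided by 4, the last added after the data were examined. Figures were drawn with matplotlib 3.10.9.

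The Wnt genes, the other pathway lists and the marker lists were chosen with earlier results of these data known. Genes named were each called Wnt gene, each past the study's thresholds, the member with the highest mean FPKM in each role (2 for ligands, frizzled receptors and ligand-binding antagonists), uncalled paralogs of called genes, up to 4 called genes with the smallest p from each other Wnt list, and Cspg4. Others were chosen after their values were seen.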

Additional observations from a re-analysis of the deposited data

Results flagged for a closer look

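In 98 groups of 4 libraries, a single library was compared with the others by Dixon's test, and 7 stood apart, where chance gives about 1 in 20 groups (5%). The part of chance in them was not tested. WT 1 was low for Wnt10b, at 1.85 CPM with the next WT library at 2.62 CPM. WT 3 was low for Tcf7, at 2.83 CPM with the next at 4.07 CPM. These are the called genes of the 7, and in both the library lay farther from the NG2ko group than the other WT libraries did.

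NG2ko 2 was high for Sfrp1, at 91.3 CPM with the next NG2ko library at 76.0 CPM, and for Frzb, a relative of the Sfrp genes that binds Wnt ligands, at 1.88 CPM with the next at 0.875 CPM. WT 4 was low for Frzb, at 0.653 CPM with the next at 1.13 CPM. WT 2 was low for Wnt5b, at 8.33 CPM with the next at 9.18 CPM, and NG2ko 1 was low for Ctnnb1, at 610 CPM (609.9) with the next at 642 CPM.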

How the results depend on the processing

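Of the 16 called Wnt genes, 10 were called under all 20 alternatives and Porcn under the 19 that test it, and none of the 16 changed direction. Wnt5a was not called under 12 alternatives, Wnt9a under 9, Wif1 under 7, Rspo1 under 5 and Tcf7 under 3. Leaving out 1 library gave 11 to 15 called Wnt genes (7 to 10 higher, 4 to 5 lower), 5 to 8 past the study's thresholds, 13 to 21 called other Wnt pathway genes and 613 to 900 genes called higher of all genes, the fewest without NG2ko 3. The count past the study's thresholds was 1 with log2(FPKM + 1), which shrinks changes of low genes by its construction. DESeq2 called 19 Wnt genes. On FPKM with a pseudocount of 0.1, 1213 genes were called higher and 905 lower, and with 1, 1239 and 912, beside 937 and 1160 from counts. With 1 library left out, Axin2 ranged from -0.089 to 0.164 and reversed without NG2ko 4 (-0.089) or WT 4 (-0.012), and Lef1 ranged from -0.52 to 0.13 and reversed without NG2ko 2 (0.0061) or WT 2 (0.13), none of them past the test.

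With the replicate number as a block, 13 Wnt genes and 1815 genes in all were called, with Wnt5a, Wnt9a, Rspo1 and Tcf7 no longer called (adjusted p = 0.108, 0.0504, 0.0504 and 0.0798, edgeR) and Sfrp1 called (adjusted p = 0.0313, edgeR). Same-numbered libraries correlated at -0.00451 to 0.0866 in their deviations from the group means, and NG2ko 2 and 4 correlated best with the WT library of their own number while NG2ko 1 and 3 correlated best with WT 4 and WT 2, so the numbers were not taken as pairs. Wnt genes under about 1 CPM rest on few counts, and differences in them may have gone undetected at this depth.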

Other observations

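Library 2 had the highest CPM of its genotype for 22 of the 48 tested Wnt genes in NG2ko and for 23 in WT, and for 14 in both genotypes at once. The 14 include the called genes Fzd8, Sfrp2, Wif1, Rspo3 and Nkd1, and also Sfrp1, Frzb, Lgr5 and Lrp6. Libraries 1, 3 and 4 were highest in both genotypes for 2, 2 and 0 of the 48. The same tally was not made over all genes, so whether the pattern is particular to Wnt genes was not tested. The chondrocyte marker sum was also highest in library 2, at 1558 CPM in NG2ko 2 and 1184 CPM in WT 2, where the other libraries had 1274 to 1436 CPM and 902 to 984 CPM. Col11a1 held most of that sum, at 1127 CPM in NG2ko 2 and 885 CPM in WT 2. The labels give no batch, day or litter that the number 2 would mark. Without NG2ko 2 or without WT 2, Fzd8, Sfrp2, Rspo3 and Nkd1 were still called higher. Wif1 was called without WT 2 (adjusted p = 0.0178, edgeR) and not without NG2ko 2 (adjusted p = 0.102, edgeR).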
